A study of Mus musculus with 6 samples.

Results

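The 10 chemokine genes described here were taken by symbol from a deposited table of 57180 mouse genes. They comprised 4 genes known as products of natural killer (NK) cells, Ccl3, Ccl4, Ccl5 and Xcl1, and 6 known as products of myeloid cells, Ccl6, Ccl9, Cxcl2, Cxcl9, Cxcl10 and Cxcl16. All 10 were found in the table and all 10 had enough counts to be tested. The division into NK-made and myeloid-made chemokines is background knowledge, and libraries made from many cells together do not show which cell made a transcript.

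Fibrotic mouse livers were the source of the sorted CD36+ NK and CD36- NK cells, and 3 libraries were sequenced for each group. The comparison asked how the NK cells that carry CD36, a scavenger receptor that takes up lipids, differ from those that do not. Both groups came from wild-type male C57BL/6J mice aged 6 to 8 weeks that had received CCl4, a liver toxin (2.5 ml/kg of a 20% solution in olive oil, injected into the peritoneum 2 times a week over 4 weeks), and livers were harvested 48 h after the final dose. The study's flow cytometry defined NK cells as CD3- NK1.1+, and its methods give no separate gate for the sequenced cells. The cells were parted by CD36, so the groups are sorted fractions of treated livers, with no untreated liver and no deletion of Cd36. The series calls the libraries biological triplicates without saying whether each came from 1 animal or a pool, so the p-values measure the spread between these samples. The names of the sequencing libraries carry the CD36 sign differently from the sample titles. The titles were followed, and Cd36 was higher in the libraries titled CD36+ NK, with 109.7, 262.6 and 237.7 normalized counts against 14.3, 31.7 and 17.1 (log2 fold change 3.27, SE 0.426, edgeR adjusted p = 0.00615).

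Chemokines are small secreted proteins that steer leukocytes along concentration gradients through receptors coupled to G proteins. NK cells that are activated release CCL3, CCL4, CCL5 and XCL1 together with interferon gamma, and these ligands draw in monocytes, T cells and the dendritic cells that carry XCR1. Macrophages, monocytes and neutrophils make CCL6 and CCL9, the neutrophil attractant CXCL2, the interferon-induced ligands CXCL9 and CXCL10, and CXCL16, which binds CXCR6 on lymphocytes of the liver sinusoids.

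All 4 NK-made chemokine genes were lower in CD36+ NK, and of the 6 myeloid-made genes Cxcl2 and Cxcl16 were higher. The falls ran from 2.68-fold for Ccl3 to 5.35-fold for Ccl5. Cxcl2 rose 4.49-fold and Cxcl16 rose 2.42-fold. Ccl6, Ccl9, Cxcl9 and Cxcl10 did not pass the test. Genes were tested with edgeR's quasi-likelihood method, and SE is the standard error of a log2 fold change. A gene was called when its Benjamini-Hochberg adjusted p over the 14761 tested genes was below 0.05 and its fold change above 2, as the study's methods set it. By this rule 6 of the 10 members were called, against 5.96% of all tested genes. By direction, 4 of 4 NK-made members were called lower, against 2.98% of all tested genes, and 2 of 6 myeloid-made members were called higher, against 2.98%. The groups did not overlap in 7 of the 10 members, as in 32.8% of all tested genes. The median log2 fold change was -1.88 over the NK-made members, 0.76 over the myeloid-made members and 0.01 over all tested genes. Values below are counts scaled to a common library size (CPM), in the order of replicates 1, 2 and 3, and fold changes are CD36+ NK over CD36- NK.

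**Figure D1:**
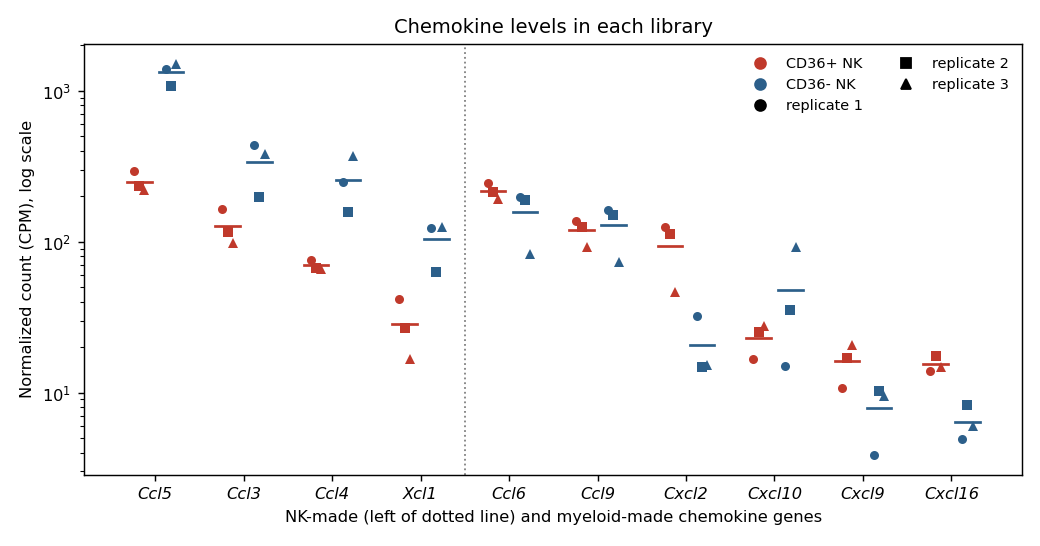
Normalized counts (CPM, log axis) of the 10 chemokine genes in the 3 CD36+ NK libraries (red) and the 3 CD36- NK libraries (blue), with symbols for the replicates and bars for the group means. The 4 NK-made genes lie lower in every red point than in every blue point, Cxcl2, Cxcl9 and Cxcl16 lie higher, and Ccl6, Ccl9 and Cxcl10 overlap.

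Ccl5 encodes RANTES, a ligand of CCR1 and CCR3 that cytotoxic lymphocytes hold ready in stored message. It was at 292.6, 232.4 and 219.7 CPM in CD36+ NK and at 1395, 1073 and 1515 CPM in CD36- NK. The lowest CD36- NK library thus lay above the highest CD36+ NK library by a wide margin, and the groups did not overlap. The mean was 248.2 ± 38.9 CPM (SD, n = 3) against 1328 ± 229 CPM (SD, n = 3), and the log2 fold change was -2.42 (SE 0.175, edgeR adjusted p = 0.000658). Ccl5 was called in 13 of 13 alternative fits, with log2 fold changes from -2.57 to -2.32.

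Ccl4 encodes MIP-1 beta, which attracts monocytes and T cells. Its levels were 76.1, 66.4 and 66.3 CPM in CD36+ NK and 248.5, 158.0 and 367.8 CPM in CD36- NK. The CD36+ NK libraries lay close together and the CD36- NK libraries were spread, without overlap. Ccl4 had a log2 fold change of -1.89 (SE 0.285, edgeR adjusted p = 0.00969). Ccl4 was called in 12 of 13 alternative fits, and without CD36+ NK replicate 2 its adjusted p was 0.0508 in the same test.

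Ccl3 encodes MIP-1 alpha, a ligand of CCR1. It was at 165.7, 116.5 and 97.8 CPM in CD36+ NK and at 437.0, 198.9 and 381.0 CPM in CD36- NK. The groups did not overlap, but the lowest CD36- NK library, replicate 2, came near the highest CD36+ NK library, replicate 1. The log2 fold change was -1.42 (SE 0.318, edgeR adjusted p = 0.0353), the smallest of the 4 NK-made genes. The call was kept in 9 of 13 alternative fits. It was lost when replicate 2 or 3 of CD36+ NK or replicate 1 or 3 of CD36- NK was left out, with adjusted p-values of the same edgeR test from 0.108 to 0.120.

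Xcl1 encodes lymphotactin, the ligand of XCR1 on cross-presenting dendritic cells. It was at 41.8, 26.6 and 16.6 CPM in CD36+ NK and at 123.0, 62.95 and 125.7 CPM in CD36- NK. As for Ccl3, replicate 2 was the lowest CD36- NK library and replicate 1 the highest CD36+ NK library, and the groups did not overlap. This was a log2 fold change of -1.87 (SE 0.383, edgeR adjusted p = 0.0264). The call was kept in 8 of 13 alternative fits. It was lost with the replicate number as a block (adjusted p = 0.0509) and without replicate 2 or 3 of CD36+ NK or replicate 1 or 3 of CD36- NK, with edgeR adjusted p-values from 0.0727 to 0.0984.

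Cxcl2 encodes MIP-2, which attracts neutrophils through CXCR2. It was at 124.3, 111.7 and 46.1 CPM in CD36+ NK and at 32.3, 14.9 and 15.3 CPM in CD36- NK. CD36+ NK replicate 3 was lower than the other CD36+ NK libraries but still above each CD36- NK library. Its log2 fold change was 2.17 (SE 0.448, edgeR adjusted p = 0.0274), the largest rise among the members. Cxcl2 was called in 10 of 13 alternative fits. It was not called without replicate 2 of CD36+ NK or without replicate 2 or 3 of CD36- NK, where the edgeR adjusted p was 0.0885, 0.0586 and 0.106.

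Cxcl16 encodes a chemokine that is made as a membrane protein and can be shed. Its levels were low, at 13.9, 17.5 and 14.9 CPM in CD36+ NK and 4.92, 8.31 and 5.96 CPM in CD36- NK. The groups did not overlap and the spread within each was small, with a log2 fold change of 1.27 (SE 0.223, edgeR adjusted p = 0.0162). Cxcl16 was called in 9 of 13 alternative fits and not without replicate 2 or 3 of CD36+ NK or replicate 1 or 3 of CD36- NK, with edgeR adjusted p-values from 0.0552 to 0.0679. Zmynd15, which overlaps Cxcl16 on the other strand, had 149 counts over the 6 libraries against 792 for Cxcl16. Whether the counting used strand is not given in the sources used here.

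Cxcl9 and Cxcl10 encode ligands of CXCR3 that are induced by interferon, and they lie side by side on chromosome 5 with 18559 bases between them. Cxcl9 was at 10.7, 17.1 and 20.7 CPM in CD36+ NK and at 3.84, 10.3 and 9.47 CPM in CD36- NK. The groups stood apart only narrowly, between CD36+ NK replicate 1 and CD36- NK replicate 2. The log2 fold change of Cxcl9 was 1.05 (SE 0.395), with an edgeR adjusted p of 0.144. In edgeR fits with a block it was called, at an adjusted p of 0.0448 with the replicate number and 0.0178 with the form of the library name.

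Cxcl10 was at 16.6, 25.1 and 27.4 CPM in CD36+ NK and at 15.1, 35.5 and 92.8 CPM in CD36- NK. The lowest and the highest value both belonged to CD36- NK, and the 3 CD36+ NK libraries lay between them. The log2 fold change was -1.04 (SE 0.590, edgeR adjusted p = 0.321). Without CD36- NK replicate 3, the library with the highest level, it was -0.14. The interferon-induced gene Ifit1, chosen after its values were seen, had the same order of libraries within each group, at 8.19, 12.1 and 14.8 CPM in CD36+ NK and 6.46, 17.2 and 41.5 CPM in CD36- NK. In the list of 14 interferon-induced genes, 0 were called by edgeR's quasi-likelihood test at a fold above 2, 3 had an unadjusted p under 0.05, and DESeq2 called 1 and edgeR's exact test 0. The median log2 fold change of the list was -0.04.

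Ccl6 and Ccl9 encode ligands of CCR1 made by macrophages, monocytes and other myeloid cells. Ccl6 was at 243.8, 213.9 and 192.5 CPM in CD36+ NK and at 196.8, 190.1 and 83.3 CPM in CD36- NK. Its libraries overlapped and the lowest was CD36- NK replicate 3. The log2 fold change was 0.47 (SE 0.304, edgeR adjusted p = 0.391). Ccl9 was at 137.8, 125.6 and 92.6 CPM in CD36+ NK and at 162.5, 150.8 and 73.5 CPM in CD36- NK. The same library, CD36- NK replicate 3, was the lowest, and the log2 fold change was -0.12 (SE 0.297, edgeR adjusted p = 0.846). Ccl6 and Ccl9 were called in 0 of the 13 alternative fits, DESeq2 and the exact test among them, and their unadjusted p-values in edgeR's quasi-likelihood test were 0.168 and 0.696. Without CD36- NK replicate 3 the log2 fold change was 0.16 for Ccl6 and -0.41 for Ccl9. Lyz2, which encodes the lysozyme of macrophages and neutrophils, had its lowest level in the same library, at 4305, 4096 and 3486 CPM in CD36+ NK and 4747, 4330 and 2052 CPM in CD36- NK.

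**Figure D2:**
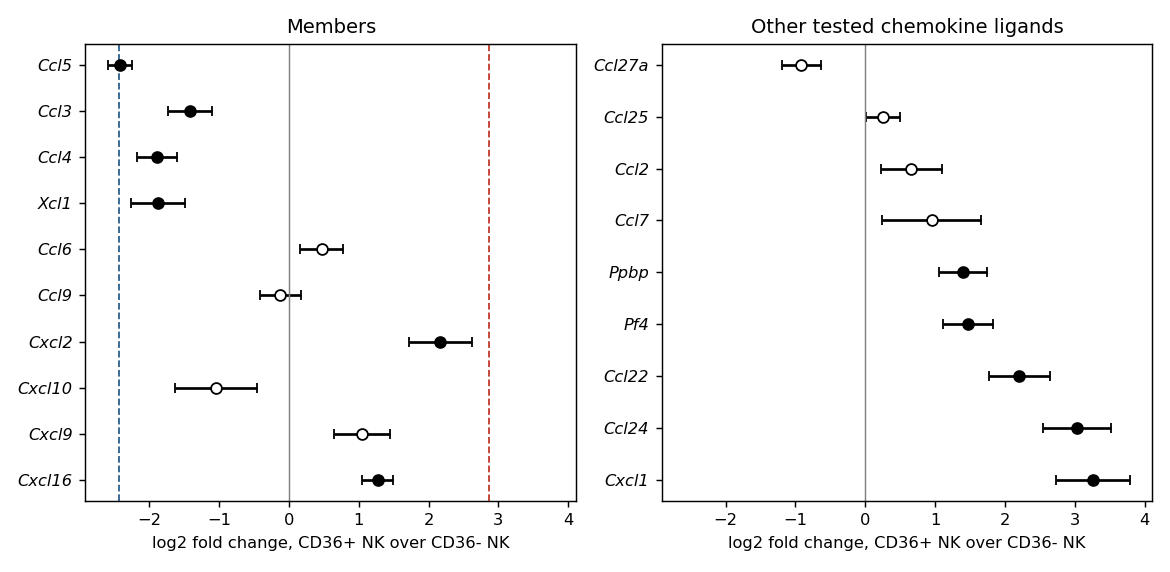
Log2 fold changes, CD36+ NK over CD36- NK, of the 10 members (left) and of the 9 other chemokine ligands with enough counts (right); bars are standard errors and filled points are called genes. Dashed lines on the left mark the medians of the NK lineage list (-2.43, blue) and the macrophage and Kupffer cell list (2.87, red), and the members lie between the lines, with Ccl5 beside the blue line.

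Levels of different genes need a common length scale. The deposited FPKM was not used for their order, because its divisor was the summed length of all distinct exons of a gene, with overlapping bases counted again, in 94.5% of 10668 genes (within 2%, lengths from GENCODE vM21). That divisor was 5156 bases for Cxcl2 against a merged exon length of 2068 bases, and 4765 against 2252 bases for Cxcl10, while it equalled the merged length in Ccl3, Ccl4 and Xcl1. Levels below are therefore counts per kilobase of merged exons and library total (merged-exon FPKM), a scale chosen after the values were seen.

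In CD36- NK the order of the mean merged-exon FPKM was Ccl5 (1397), Ccl3 (446), Ccl4 (394), Xcl1 (200.3), Ccl6 (88.7), Ccl9 (43.0), Cxcl10 (21.3), Cxcl2 (10.2), Cxcl9 (2.64) and Cxcl16 (2.15). The 4 NK-made genes came first, and the lowest Xcl1 library (124.0) lay above the highest Ccl6 library (110.8). Neighbours overlapped in range for Ccl3 and Ccl4, for Ccl6, Ccl9, Cxcl10 and Cxcl2 in turn, and for Cxcl9 and Cxcl16.

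In CD36+ NK the order of the mean merged-exon FPKM was Ccl5 (255.3), Ccl3 (163.6), Ccl6 (119.2), Ccl4 (104.0), Xcl1 (53.8), Cxcl2 (45.1), Ccl9 (38.5), Cxcl10 (10.04), Cxcl9 (5.24) and Cxcl16 (5.025). Ccl6 ranked above Ccl4 and Xcl1 here, although its range overlapped that of Ccl4, and Cxcl2 ranked next to Xcl1, with overlap. Ccl5 and Ccl3, which were separate in CD36- NK, overlapped in range in CD36+ NK. The NK-made genes made up 73.6%, 69.7% and 72.65% of the summed merged-exon FPKM of the 10 members in CD36+ NK and 93.3%, 90.4% and 95.85% in CD36- NK. The share was 72.0% ± 2.03 (SD, n = 3) against 93.2% ± 2.73 (SD, n = 3), without overlap, and 58.8% ± 2.72 against 84.85% ± 7.201 when Ccl5 was left out. On the deposited FPKM the share was 77.5% ± 1.70 against 94.3% ± 2.59. Most of the shift lay in the NK-made sum, which was 725, 538 and 467 in CD36+ NK and 2664, 1789.5 and 2858.5 in CD36- NK on the merged-exon scale. The myeloid-made sum on that scale was 259.7, 233.6 and 175.9 in CD36+ NK and 190.2, 190.1 and 123.6 in CD36- NK, with overlap. These shares are descriptions, since the members were chosen with results known, and no test was made of them.

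The same contrast on the log2 scale weights each gene equally. The mean log2 CPM of the NK-made genes exceeded that of the myeloid-made genes by 1.25, 0.64 and 0.67 in the CD36+ NK libraries and by 3.82, 2.69 and 3.83 in the CD36- NK libraries. The gap was thus smaller in each CD36+ NK library than in each CD36- NK library. The mean gap was 0.86 against 3.45, and the spread between replicates was 0.52.

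The NK-made chemokines were set against 10 genes of the NK lineage, since the sorted fractions differed in these as well. All 10 were called lower in CD36+ NK, and the median of their log2 fold changes was -2.43. Gzma, the granzyme A gene, had -2.57, Il2rb, which encodes a chain of the interleukin-2 and interleukin-15 receptors, had -2.20, and Nkg7, a cytotoxic granule gene, had -2.42. In bulk libraries, fewer cells of a type and less RNA per cell cannot be told apart.

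The log2 CPM of Ccl5 minus the mean log2 CPM of the 10 NK lineage genes was 1.53, 1.14 and 1.31 in CD36+ NK and 1.47, 1.22 and 1.37 in CD36- NK. These values overlapped, and the difference of the means was -0.03 (exact permutation test, two-sided, p = 0.9). Measured against the NK lineage, Ccl3 was higher in CD36+ NK, at 0.71, 0.14 and 0.14 against -0.21, -1.21 and -0.62, a difference of 1.01 without overlap (two-sided exact permutation test, p = 0.1, the lowest value possible with 3 libraries in each group). Ccl4 also lay above, by 0.58 without overlap (exact permutation test, p = 0.1). Xcl1 overlapped, with a difference of 0.49 (exact permutation test, p = 0.4). Each of the 6 myeloid-made genes lay higher against the NK lineage in every CD36+ NK library, by 1.69 for Cxcl10 to 4.53 for Cxcl2. Since the 10 reference genes were themselves lower in CD36+ NK, a gene without any change also lies higher on this scale. Of all 14761 tested genes 97.3% lay higher than the NK lineage list in every CD36+ NK library, against 8 of the 10 members, and the median difference over all tested genes was 2.40. The differences of 6 members were below that median, the 4 NK-made genes with Cxcl10 (1.69) and Ccl9 (2.33), and those of Ccl6, Cxcl9, Cxcl16 and Cxcl2 were above it. With 3 libraries in each group none of these 10 tests could reach 0.05, before any adjustment.

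**Figure D3:**
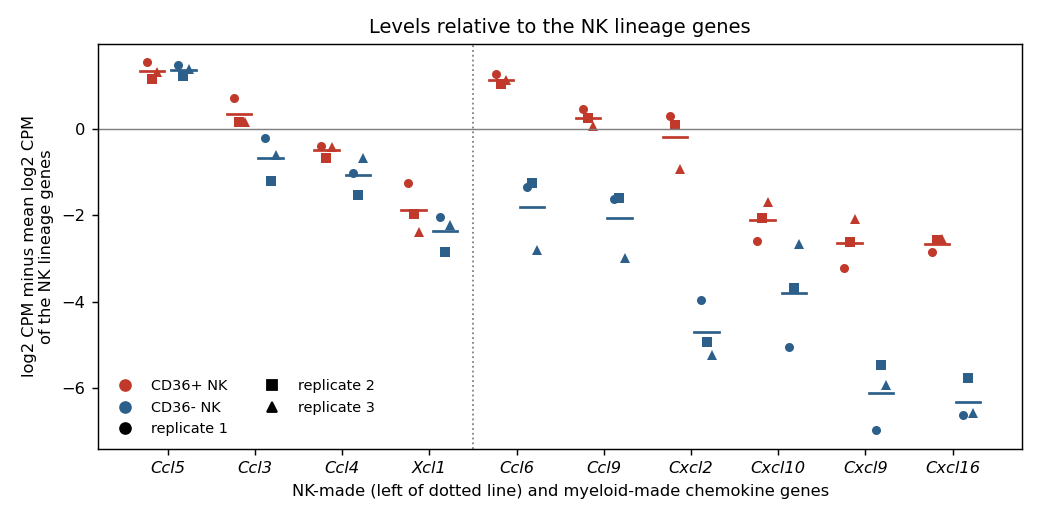
Log2 CPM of each chemokine gene minus the mean log2 CPM of the 10 NK lineage genes, per library, with bars for the group means (red, CD36+ NK; blue, CD36- NK). Ccl5 has like values in both groups, Xcl1 overlaps, and the other 8 genes lie higher in every CD36+ NK library, as do 97.3% of all tested genes, because the reference genes were lower in CD36+ NK.

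The myeloid-made chemokines were likewise set against the macrophage and Kupffer cell list, of which 11 of 13 genes were tested. Its median change was 2.87 on the log2 scale, all 11 values were above 0 and 4 were called higher (Adgre1, Cd68, Csf1r and Marco), while DESeq2 called 8 and edgeR's exact test 9. Its summed level was 6804 to 9590 CPM in CD36+ NK and 2477 to 5861 CPM in CD36- NK. A large part of this sum came from Lyz2, its most expressed gene, which was not called (log2 fold change 0.095). Lyz2 was at 4305, 4096 and 3486 CPM in CD36+ NK and at 4747, 4330 and 2052 CPM in CD36- NK. Clec4f, a defining gene of Kupffer cells that was not tested, was at 0 in the CD36- NK libraries and at 1.51, 45.9 and 0 CPM in CD36+ NK. Vsig4, also not tested, was likewise highest in CD36+ NK replicate 2. Other genes of the list were highest in CD36+ NK replicate 3. Cd5l, not called, was at 129.1, 237.1 and 454.3 CPM against 12.99, 85.8 and 11.1 CPM. Timd4, not called, was at 8.28, 14.6 and 23.6 CPM against 1.15, 4.42 and 0 CPM. Marco was at 14.4, 31.6 and 47.5 CPM against 0.999, 5.92 and 1.37 CPM. The part of these cells in the chemokine differences was not tested.

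Against the mean log2 CPM of the macrophage list, Cxcl2 was at -0.44, -1.21 and -3.15 in CD36+ NK and at 0.21, -2.77 and -0.39 in CD36- NK. The groups overlapped, and the difference was -0.62 (exact permutation test, two-sided, p = 0.5). Cxcl16 overlapped too, with a difference of -1.48 (exact permutation test, p = 0.2). The other 4 myeloid-made genes lay lower against this list in every CD36+ NK library, by differences of -1.67 for Cxcl9, -2.20 for Ccl6, -2.82 for Ccl9 and -3.46 for Cxcl10 (exact permutation tests, p = 0.1 each). The reference list was higher in CD36+ NK, so a gene without any change lies lower on this scale. Of all tested genes 90.2% lay lower against the macrophage list in every CD36+ NK library, with a median difference of -2.75. Within CD36+ NK, Cxcl2 was lowest in replicate 3, where Lyz2 was lowest as well and where Csf1r (1138, 1726 and 2342 CPM) and C1qb (251.9, 379.7 and 707.6 CPM) were highest.

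Other cell types were read from further marker lists. The monocyte list was mixed, with Cd14 (log2 fold change 1.70) and Clec4e (1.77) called higher, Ccr2 called lower and 5 of its 8 genes below 0. Ly6c2 (-1.14), F13a1 (-1.23) and Vcan (-1.002), named after their values were seen, were not called by edgeR's quasi-likelihood test, while DESeq2 and edgeR's exact test each called 2 of the list higher and 3 lower. Its sum was 1075 to 1572 CPM in CD36+ NK and 1100 to 1837 CPM in CD36- NK. Plac8 and Chil3, its most expressed genes, had log2 fold changes of 0.47 and -0.70. Of 8 neutrophil genes 0 were called by edgeR's quasi-likelihood test and 1 by DESeq2 or by edgeR's exact test, with 1 at an unadjusted p under 0.05, and their sum was 659 to 3648 CPM in CD36+ NK and 1226 to 2981 CPM in CD36- NK. CD36+ NK replicate 1 held the highest neutrophil sum and also the highest T cell sum, at 338 CPM against 27.4 to 47.7 CPM in the other 5 libraries. Its neutrophil genes S100a9, Ltf and S100a8 were at 1121, 912 and 824 CPM. Without this library the same 6 members were called, with log2 fold changes of -2.57 for Ccl5, -1.67 for Ccl3, -1.97 for Ccl4, -2.27 for Xcl1, 1.90 for Cxcl2 and 1.33 for Cxcl16.

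Basophils and mast cells also make Ccl3, Ccl4 and Ccl6. Of 6 basophil and mast cell genes 0 were called by edgeR's quasi-likelihood test, 4 had an unadjusted p under 0.05, and DESeq2 and edgeR's exact test each called 3 lower. All 6 log2 fold changes were negative, from -1.61 to -0.63, with -1.34 for Prss34, -1.40 for Mcpt8 and -0.98 for Gata2. Their sum was 24.0 to 52.5 CPM in CD36+ NK and 48.5 to 98.8 CPM in CD36- NK, so it overlapped. In conventional dendritic cells 2 of 6 genes were called higher, Xcr1 and Clec9a, and the sum was 78.4 to 105.3 CPM against 44.05 to 79.3 CPM. The 4 plasmacytoid dendritic cell genes had no call in edgeR's quasi-likelihood test and a median of 0.35, with 2 at an unadjusted p under 0.05 and 1 call by DESeq2 or by edgeR's exact test. In the B cell list all 8 log2 fold changes were above 0, with a median of 0.54, 7 genes had an unadjusted p under 0.05, and 1 passed the fold threshold and was called, Cr2 (1.04). The B cell sum was 4806 to 5384 CPM in CD36+ NK and 3136 to 3587 CPM in CD36- NK, without overlap. In the T cell list 2 of 8 genes were called, Cd4 (2.34) and Cd8a (3.17). Cd3d, Cd3e and Cd3g, which encode chains of CD3, were not called. Cd3d was at 35.3, 1.32 and 1.33 CPM in CD36+ NK and at 5.54, 7.52 and 7.33 CPM in CD36- NK. Cd3e and Cd3g were likewise high in CD36+ NK replicate 1 and below each CD36- NK library in replicates 2 and 3. In the erythroid list 3 of 6 were called, Alas2 (1.82), Hba-a1 and Hbb-bs, and its sum was 259.5 to 584.2 CPM in CD36+ NK and 58.0 to 130.3 CPM in CD36- NK. The lists of platelets, liver sinusoidal endothelial cells, hepatocytes and hepatic stellate cells had 1, 2, 0 and 1 tested genes and no call in the same test. Of these, 1 endothelial gene had an unadjusted p under 0.05 and was called by DESeq2 and by edgeR's exact test. The 6 genes of liver-resident NK cells and ILC1 had no call by any of the 3 tools and a median of -0.74, with 3 lower at an unadjusted p under 0.05. The part of these cells in the chemokine differences was not tested.

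Of 18 tested receptor genes, edgeR's quasi-likelihood test called 2 higher and 2 lower, while DESeq2 and edgeR's exact test each called 5 higher and 2 lower. Xcr1, the receptor of XCL1, was higher, at 9.88, 7.28 and 11.4 CPM against 1.69, 2.48 and 0.98 CPM (log2 fold change 2.46, edgeR adjusted p = 0.00763). Xcl1 and its receptor gene thus differed in opposite directions. Cxcr3, the receptor of CXCL9 and CXCL10, was at 35.8, 24.9 and 23.4 CPM against 49.8, 56.8 and 55.3 CPM, with an edgeR adjusted p of 0.0188 but a log2 fold change of -0.95, short of the fold threshold. Ccr1 (0.78), Cxcr2 (1.72) and Cxcr6 (-0.30) were not called by any of the 3 tools. Cxcr2, the receptor of CXCL2, was at 67.2 CPM in CD36+ NK replicate 1 and at 4.004 to 12.7 CPM in the other 5 libraries. Ccr3, a receptor of CCL5 and CCL24 known from eosinophils and basophils and named after its values were seen, was at 74.9, 105.7 and 217.2 CPM in CD36+ NK and at 6.84, 43.1 and 5.76 CPM in CD36- NK. The groups did not overlap, but CD36- NK replicate 2 stood well above the other CD36- NK libraries, and Ccr3 was not called by edgeR's quasi-likelihood test (log2 fold change 2.84, SE 0.811, edgeR adjusted p = 0.0697). DESeq2 (adjusted p = 0.0294) and edgeR's exact test (adjusted p = 0.00674) called it. Among the other receptor genes called, Ccr2, which monocytes use to leave the marrow, was lower (-1.35) and Ackr2, a scavenger of inflammatory CC chemokines, was higher (1.87).

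A further 30 chemokine ligand genes had low counts. Of them 21 had too few to be tested, and 7 of these had 0 in every library (Ccl8, Ccl11, Ccl21a, Ccl21b, Ccl21d, Ccl26 and Cxcl17). Of the 9 tested, 5 were called higher and 0 lower in CD36+ NK by edgeR's quasi-likelihood test. DESeq2 and edgeR's exact test also called 0 lower, and 1, Ccl27a, was lower at an unadjusted p under 0.05. They were Cxcl1 (log2 fold change 3.26), which like Cxcl2 binds CXCR2, Ccl24 (3.03), a ligand of the eosinophil receptor CCR3, Ccl22 (2.21), a ligand of CCR4, and Pf4 (1.47) and Ppbp (1.40), which platelets store. All were at low levels, from 1.66 to 7.56 CPM in CD36+ NK and from 0.10 to 2.84 CPM in CD36- NK. Cxcl1 was at 4.63, 3.09 and 1.66 CPM against 0.46, 0.27 and 0.20 CPM, highest in CD36+ NK replicate 1 and lowest there in replicate 3, the order of Cxcl2. The count fell to 1 without replicate 1 or 3 of CD36- NK and to 3 without CD36+ NK replicate 2 or 3. Ccl2, the main monocyte attractant, was at 21.0, 12.7 and 5.90 CPM against 10.4, 8.23 and 6.35 CPM, with overlap (log2 fold change 0.66, edgeR adjusted p = 0.395).

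Interferon gamma, which NK cells release along with their chemokines, was lower in CD36+ NK, with Ifng at 38.6, 56.3 and 59.2 CPM against 210.9, 217.9 and 493.2 CPM (log2 fold change -2.58, edgeR adjusted p = 0.00800). Of 11 genes induced through NF-kB, a transcription factor of inflammatory signalling, Il1b (2.77) and Il1a (3.30) were called higher and 0 lower, by edgeR's quasi-likelihood test, its exact test and DESeq2 alike, 0 were lower at an unadjusted p under 0.05, and the median over the 11 was 0.06. Tnf, a member of that list chosen here after its values were seen, was at 38.6, 44.5 and 31.5 CPM against 29.7, 39.7 and 67.3 CPM and overlapped.

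The members sit in a few places in the genome. The coordinates are those of the deposited table, which names no build. Of 51884 genes shared with the GRCm38 build, 1396 had the same position there. These coordinates can therefore not be set beside the GRCm38.p6 positions given for the promoters below. Ccl5 (83416604 to 83421344), Ccl9 (83463745 to 83469462), Ccl6 (83478708 to 83483913) and Ccl3 (83538670 to 83540181) lie on the minus strand of chromosome 11, and Ccl4 (83553410 to 83555509) on its plus strand. These 5 genes of the CC cluster span 138.9 kb. The called genes Ccl5, Ccl3 and Ccl4 stand at its ends, and Ccl9 and Ccl6, which were not called, stand between them, 47.1 and 62.1 kb from the left end of Ccl5. Cxcl16 lies elsewhere on chromosome 11 (70344809 to 70350810), Xcl1 on chromosome 1 (164759213 to 164763096), and Cxcl2 (91051730 to 91053797), Cxcl9 (92469206 to 92475938) and Cxcl10 (92494497 to 92496748) on chromosome 5. Genes on the opposite strand that overlap Ccl3, Ccl6, Cxcl10 and Xcl1 had 238, 83, 37 and 0 counts over the 6 libraries, against 16458, 13525, 2405 and 4631 for these chemokines.

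**Figure D4:**
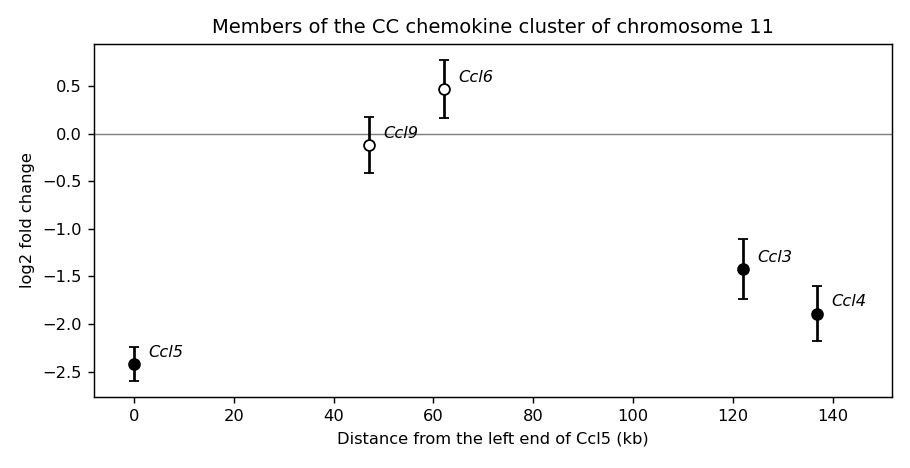
Log2 fold change, CD36+ NK over CD36- NK, of the 5 members of the CC cluster on chromosome 11 by distance from the left end of Ccl5 in kb; bars are standard errors and filled points are called genes. Ccl5 at 0 kb and Ccl3 and Ccl4 at 122.1 and 136.8 kb were lower, and Ccl9 and Ccl6 between them were near 0.

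Promoter sequences from RefSeq (GRCm38.p6, from 250 bases before to 50 bases after the start site) were given for 7 of the 10 members, all but Ccl4, Ccl5 and Cxcl16. Both strands were searched for the NF-kB consensus, for the interferon-stimulated response element ISRE (GAAANNGAAA) and for a T-box motif (TCACACCT), the family of the NK factors T-bet and eomesodermin. The NF-kB consensus was found in Cxcl2, Cxcl10 and Ccl9, and in 8.46% of all 32851 promoters of that length. The ISRE was found in Cxcl10, and in 3.44% of all promoters. The T-box motif was found in 0 of the 7 and in 1.28% of all promoters. A match describes the letters of a promoter, and the absence of one concerns this window only.

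The 250 bases before the start site are shown for Cxcl2 and Cxcl10, the members with NF-kB matches that differed most in how they behaved, and for Ccl3 and Xcl1, the NK-made members with a sequence. Capitals mark the matches, which overlap each other in Cxcl2 (from positions -97 and -96) and in the later of the NF-kB stretches of Cxcl10 (from -104 and -103, counted from the start site). The earlier NF-kB match of Cxcl10 starts at -159 and its ISRE at -213. The sequences are given 5′ to 3′ on the gene's strand, at chr5:90903649-90903898 (plus) for Cxcl2, chr5:92348890-92349139 (minus) for Cxcl10, chr11:83649379-83649628 (minus) for Ccl3 and chr1:164935523-164935772 (minus) for Xcl1.
Cxcl2: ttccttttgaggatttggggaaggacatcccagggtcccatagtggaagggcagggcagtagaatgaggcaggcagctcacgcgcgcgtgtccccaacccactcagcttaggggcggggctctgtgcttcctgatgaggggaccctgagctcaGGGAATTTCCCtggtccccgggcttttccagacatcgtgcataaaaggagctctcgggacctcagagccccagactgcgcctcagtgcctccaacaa
Cxcl10: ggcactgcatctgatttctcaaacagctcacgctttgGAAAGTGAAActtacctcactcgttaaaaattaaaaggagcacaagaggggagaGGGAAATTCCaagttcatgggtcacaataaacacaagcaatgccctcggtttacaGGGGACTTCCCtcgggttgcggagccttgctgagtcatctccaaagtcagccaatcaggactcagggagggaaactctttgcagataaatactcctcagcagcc
Ccl3: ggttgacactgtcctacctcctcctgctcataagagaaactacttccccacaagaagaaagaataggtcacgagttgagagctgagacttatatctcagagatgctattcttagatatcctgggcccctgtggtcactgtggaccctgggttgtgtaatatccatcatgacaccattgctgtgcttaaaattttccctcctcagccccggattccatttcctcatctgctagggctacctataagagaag
Xcl1: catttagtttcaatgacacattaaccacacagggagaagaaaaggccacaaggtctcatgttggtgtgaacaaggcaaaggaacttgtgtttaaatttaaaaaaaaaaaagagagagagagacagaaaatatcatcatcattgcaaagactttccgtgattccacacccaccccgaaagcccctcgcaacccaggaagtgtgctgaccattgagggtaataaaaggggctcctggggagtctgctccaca
Of the members with an NF-kB match, Cxcl2 was called higher, and Ccl9 and Cxcl10 were not called.

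The number of members called depended on single libraries. It was 6 without CD36+ NK replicate 1 and 5 without CD36- NK replicate 2, where Cxcl2 was the member lost. It was 3 (Ccl5, Ccl4 and Cxcl2) without replicate 3 of CD36+ NK or replicate 1 of CD36- NK, 2 (Ccl5 and Ccl4) without CD36- NK replicate 3, and 1 (Ccl5) without CD36+ NK replicate 2. The calls over all tested genes, 880 as reported, changed in the same fits. They were 1122, 418 and 451 without CD36+ NK replicate 1, 2 and 3. Without CD36- NK replicate 1, 2 and 3 they were 417, 1160 and 431. The signs of the 6 called members were the same in all 13 alternative fits.

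**Figure D5:**
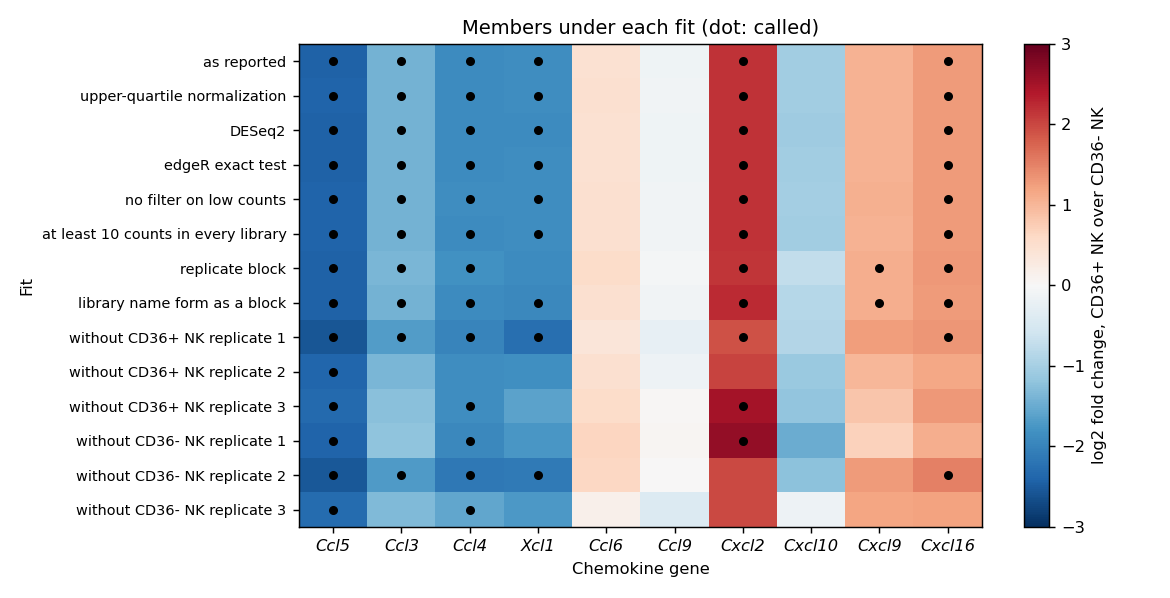
Log2 fold changes (color scale from blue, lower in CD36+ NK, to red, higher) of the 10 members in the fit as reported and in 13 alternative fits; dots mark called genes. Ccl5 is called in every row, Ccl6, Ccl9 and Cxcl10 in none, and the rows that leave out a library hold the most lost calls.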

How the data were processed

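RNA-seq (400 ng of total RNA, Illumina) covered 3 libraries of each sorted fraction, CD36+ NK and CD36- NK. The authors filtered reads with Seqtk, aligned them with HISAT2 2.0.4 and used StringTie to obtain a fragment count for each gene. The raw counts were deposited by the authors next to FPKM values. In the deposited FPKM values, 1 divisor per gene fitted all libraries within 1% for 100% of 7439 genes above 200 counts in every library, and it was the summed length of distinct exons, not a transcript length. Levels between genes were therefore taken from counts over the merged exon length of GENCODE vM21, and FPKM entered no test. The build is not named in the table, and the submitters' processing notes name a rat assembly although gene IDs and symbols are mouse. Broken lines (2) were rejoined. Columns were matched by library name. The numbers of the CD36- NK columns also match titles of other samples, so which CD36- NK library is replicate 1, 2 or 3 in the leave-outs and the block is uncertain, while its group is not. Library totals ran from 10292480 to 13787189 counts.

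Counts were filtered (filterByExpr, minimum count 10), scaled by TMM and tested with edgeR 4.0.16 (quasi-likelihood, no block) in R 4.3.3, with Benjamini-Hochberg adjustment over 14761 genes. Each SE is the size of the log2 fold change over the root of its F statistic, and the biological coefficient of variation was 20.3%. Replicates differed beyond sampling noise (chi-square per degree of freedom 14.8 to 29.2), so each was kept as its own sample. Relative levels used log2 CPM with a pseudocount of 2 counts and exact permutation tests (scipy 1.17.1). Tried beside this were upper-quartile scaling, DESeq2 1.42.0, the exact test of edgeR, other filters, adjusted p alone, 2 kinds of block and each replicate left out. The edgeR steps were tested on simulated data.

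The members and lists were chosen with earlier results of these data known. Named genes are the members, the called ligands and receptors of lowest p (up to 5 in each direction), the members' receptors, the called gene of lowest p of each other list, Cd36, and the 3 most expressed genes of the NK, macrophage, monocyte, neutrophil and basophil lists. Others were chosen after their values were seen. A result on 1 receptor gene is not reported here.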

Additional observations from a re-analysis of the deposited data

How the results depend on the processing

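The 13 alternative fits left the sign of each member as reported except for Ccl9, whose log2 fold change near 0 became 0.03 without CD36+ NK replicate 3, 0.069 without CD36- NK replicate 1 and 0.009 without CD36- NK replicate 2 and ran from -0.406 to 0.069 when libraries were left out. With each replicate left out in turn, 1 to 6 members were called (6 as reported), 1 to 4 of them NK-made and lower and 0 to 2 myeloid-made and higher, other ligands called numbered 1 to 4 (5 as reported), receptors 4 to 6 (4 as reported), and all genes 417 to 1160 (880 as reported). Each of these fits has fewer libraries. All genes called rose to 1122 without CD36+ NK replicate 1 and to 1160 without CD36- NK replicate 2, and fell in the other leave-outs. The cause of these changes was not tested. With at least 10 counts in every library, which tests fewer of these low genes, 1 other ligand was called. DESeq2 and edgeR's exact test called 7 receptors each (5 higher and 2 lower), and adjusted p alone called 7 receptors (4 higher and 3 lower) and 1552 genes (749 higher and 803 lower), since it drops the fold threshold. DESeq2 called 1143 genes, edgeR's exact test 1247. The samples share replicate numbers, and replicate 1 of each group also shares a form of library name that the other 4 libraries lack. Deviations of same-numbered libraries from their group means had correlations of 0.310, 0.0515 and -0.0837 across genes, and not every library correlated best with its own number. With the replicate number as a block 6 members, 3 other ligands and 560 genes (221 higher and 339 lower) were called, the cause of the lower counts was not tested, and of the members Xcl1 lost its call while Cxcl9 gained it. With the form of the library name as a block 7 members, 5 other ligands and 912 genes (475 higher and 437 lower) were called, and Xcl1 kept its call (adjusted p = 0.0203) while Cxcl9 gained one (adjusted p = 0.0178). With the merged exon length in place of the divisor of the deposited FPKM, chosen after the data were seen, the NK-made share in CD36+ NK was 72.0% in place of 77.5%. The members held 792 (Cxcl16) to 54889 (Ccl5) counts over the 6 libraries. The fold changes of the low ligands rest on few counts in CD36- NK, such as 6, 3 and 2 for Cxcl1, and the effect of depth was not tested.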
